A study of Mus musculus with 12 samples.

Results

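The 9 genes described here encode small leucine-rich proteoglycans (SLRPs), namely Dcn (decorin), Bgn (biglycan), Aspn (asporin), Lum (lumican), Fmod (fibromodulin), Prelp, Kera (keratocan), Omd (osteomodulin, also called osteoadherin) and Ogn (osteoglycin, also called mimecan). They were chosen by gene symbol, and all 9 were listed in every table, among 53715 genes in the table of 5 periosteal stem cell (PSC) libraries, 48709 in the separate table of the third PSC control and 46517 in the osteoclast table. All 9 were tested in PSCs, where 11045 genes had a mean of at least 1 RPKM (reads per kilobase of exon and 1000000 mapped reads). In osteoclasts only Bgn was among the 10724 genes that passed the filter on low counts.

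The study deleted Prmt5, an arginine methyltransferase, with Cre recombinase driven by the Ctsk promoter, which is active in osteoclasts and in PSCs. PSCs were sorted from the long bones of C57BL/6 mice aged 3 to 6 weeks as EGFP-positive (Ctsk-Cre reporter) CD51+ CD200+ CD105- cells that lacked Ter119, CD31, 6C3, CD45 and CD90. The 3 control libraries came from Prmt5flox/+ Ctsk-Cre CAG-CAT-EGFP mice and the 3 cKO libraries from Prmt5flox/Δ Ctsk-Cre CAG-CAT-EGFP mice, so that both groups carried Cre, the reporter and a floxed allele. Osteoclasts were grown from bone marrow cells of C57BL/6 mice aged 11 weeks and collected 72 h after RANKL, with 3 libraries from control mice, whose genotype the labels do not give, and 3 from cKO mice of the genotype Prmt5flox/Δ Ctsk-Cre. The PSC libraries are described as coming from separate mice. No source used here gives the mice behind the osteoclast libraries, so p-values there measure only the spread between libraries, which may be technical.

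SLRPs are secreted proteins with a core of leucine-rich repeats, and most carry chondroitin, dermatan or keratan sulfate chains. They bind collagen fibrils and limit fibril growth and fusion, and several also bind growth factors such as TGF-β. Dcn, Bgn and Aspn form class I, Lum, Fmod, Prelp, Kera and Omd class II, and Ogn belongs to class III. In the skeleton, Dcn, Bgn and Lum are found in bone matrix and periosteum, Fmod and Kera in tendon and ligament, Prelp in cartilage and basement membranes, Aspn in periosteum and cartilage, and Omd in mineralized matrix, where it was first found.

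The PSC libraries held 6958265 to 13928745 mapped reads, as implied by the steps of the RPKM values, and the osteoclast libraries 984885 to 3608940 counted reads. Control 3 of the PSCs stood apart from the other 5 PSC libraries, with r = 0.842 to 0.860 over 10943 genes on the log2(RPKM + 1) scale against 0.948 to 0.982 among those 5. It was deposited in a table of its own that used other exon lengths, and of 10793 genes with a length for both tables, 1103 (10.2%) were over 1.1 times longer in the 5-library table. Among these were 4 SLRP genes, Dcn with 5838 against 2084 bases, Omd with 2249 against 1556, Lum with 2448 against 2075 and Kera with 2280 against 1950, whereas Bgn, Fmod and Prelp had equal lengths. The deposited RPKM of control 3 for these 4 genes is therefore not on the scale of the other libraries, and a value scaled to the 5-library length is given beside it. That value still lacks any read that fell on the extra exon bases, which were not counted for control 3. The main comparison was made within the 5-library table, with 2 control and 3 cKO libraries, and control 3 is shown beside it. Prmt5 RPKM was 6.29 and 8.31 for the first 2 controls, 4.32 for control 3 and 8.40, 6.31 and 8.08 across cKO 1 to 3, so that the PSC directions below rest on the library labels. Ctsk, the gene behind the sort, lay between 156 and 192 RPKM in all 6 PSC libraries, and 8 cartilage markers of the 9 listed, those with values here, summed to 5299 to 9910 RPKM in the same libraries.

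SLRP genes were among the abundant transcripts of the sorted PSCs. Together the 9 genes made up 2.73% to 3.40% of all RPKM in the 5 libraries and 3.80% in control 3 at matched exon lengths. Fmod ranked highest, with 2444 to 3240.3 RPKM in the 5 libraries, and Kera lowest, with 55.7 to 175 RPKM. Between them came, by mean RPKM, Dcn (1250.1), Lum (862), Bgn (748), Prelp (615), Omd (347), Ogn (297) and Aspn (268). Fmod was above Dcn, and Aspn above Kera, in 5 of 5 libraries without overlap of their ranges. The ranges of all other neighbours in this order overlapped. In control 3 the order was different, with Lum at 2955 and Dcn at 2124 RPKM at matched lengths, both above Fmod at 1991 RPKM.

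In PSCs, 3 of the 9 SLRP genes passed the test between the 2 control and 3 cKO libraries (adjusted p under 0.05, limma on log2(RPKM + 1), Benjamini-Hochberg over all 11045 genes). Lum was lower in the cKO libraries, and Omd and Ogn were higher. Over all tested genes, 1.67% were called lower and 8.46% higher. Of the 9 members, 5 had an unadjusted p under 0.05 by limma, but the share of all genes under that level was not counted for PSCs. In the 5 libraries, 3 members had both controls above every cKO library (Lum, Bgn and Aspn) and 2 had both below (Omd and Ogn). The share of all genes without overlap in these 5 libraries was not counted either, so a lack of overlap there has no background beside it. The median log2 fold change was -0.15 for the 9 members and 0.14 for all tested genes. Scaling by DESeq2 size factors, which takes the median of all genes to 0.00, changed the calls of all genes from 934 higher and 184 lower to 418 and 291, and among the members left only Lum called. In bulk libraries, fewer cells of a type and less RNA per cell cannot be told apart.

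**Figure D1:**
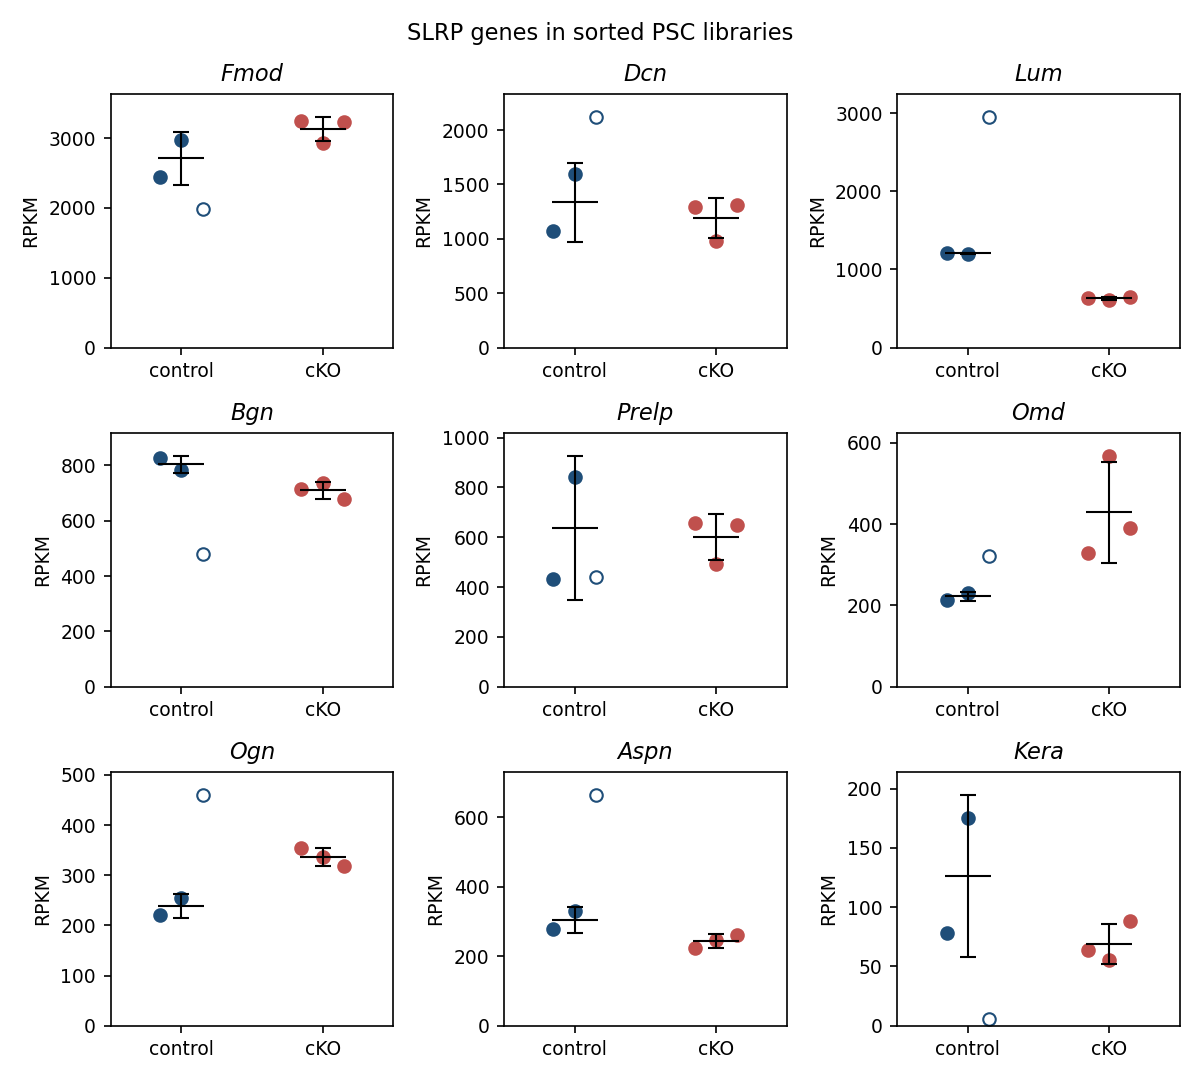
RPKM of the 9 SLRP genes in each PSC library, with controls in blue and cKO libraries in red. Filled points are the 5 libraries of the shared table, open points are control 3 at the exon lengths of that table, and horizontal bars with whiskers are the mean ± SD of the filled points (n = 2 controls and 3 cKO). The 3 cKO libraries lie below every control for Lum and Aspn and above every control for Omd.

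Lum, a class II SLRP with keratan sulfate chains that is needed for normal collagen fibrils in cornea, skin and tendon, lies on chromosome 10 from 97565128 to 97572703 (GRCm38, plus strand). Its RPKM was 1206 in control 1, 1202 in control 2, 633 in cKO 1, 613 in cKO 2 and 654 in cKO 3. The values within each group were close, at 1204 ± 2.53 (SD, n = 2) in controls and 633 ± 20.3 (SD, n = 3) in cKO libraries, and the groups did not overlap. Lum fell by 0.93 on the log2 scale (adjusted p = 0.00720 by limma, SE 0.128), a ratio of means of 0.526. Control 3 had 3486 RPKM as deposited and 2955 RPKM at the matched length, above every other library on both scales. Lum stayed called without any 1 of the 5 libraries (adjusted p = 0.0259 to 0.0370 from limma) and with size factor scaling, where it fell by 1.09. With control 3 in the fit at matched lengths the difference was larger, -1.36, but so was the spread (limma, SE 0.357 with an adjusted p = 0.0989), and an exact permutation test of the 3 against 3 libraries gave p = 0.10, the smallest it allows.

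Fmod, which directs early fibril assembly in tendon and is the nearest relative of Lum in class II, lies on chromosome 1 from 134037254 to 134048277 (plus strand). It had 2444 RPKM in control 1, 2974 in control 2, 1991 in control 3, and 3240.3, 2931 and 3227 in cKO 1 to 3. Control 2 lay above cKO 2, so the groups overlapped, and the log2 fold change of 0.22 did not pass the test (adjusted p = 0.468 by limma, SE 0.175). Set against each other within each library, which removes any scaling of the whole library, the ratio of Fmod to Lum was 2.03 and 2.47 in controls 1 and 2 and 0.673 in control 3 at matched lengths. In cKO 1, 2 and 3 the ratio was 5.12, 4.78 and 4.93. All 3 cKO ratios were above all 3 control ratios. For Lum every cKO library was below every control at matched lengths, while Fmod varied less between libraries. The separation of this ratio therefore follows from the Lum values and adds no support. This pair was chosen after its values were seen and was not tested.

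Omd, a class II SLRP with keratan sulfate chains that osteoblasts deposit in mineralized matrix, and Ogn, a class III SLRP first found in bone, are neighbours on chromosome 13, with Omd from 49582462 to 49592822 and Ogn from 49608046 to 49624501. Aspn lies before Omd, from 49544443 to 49567565, and all 3 are transcribed from the plus strand inside the span of Cenpp, a centromere protein gene on the minus strand. Omd RPKM was 214 and 230.5 for the first 2 controls and 329, 569 and 389.6 across cKO 1 to 3. All 3 cKO libraries were above both controls, but they differed among themselves, with cKO 2 highest. The mean went from 222 ± 11.4 (SD, n = 2) to 429 ± 124 (SD, n = 3), a log2 fold change of 0.91 (limma, SE 0.220 with an adjusted p = 0.0422). Control 3 had 464 RPKM as deposited, inside the cKO range, and 321 RPKM at the matched length, below all 3 cKO libraries. That 321 lacks any read on the extra exon bases and lies close to the 329 of cKO 1. Omd was not called with size factors (0.74, adjusted p = 0.114), without control 1 (0.86, adjusted p = 0.166), without control 2 (0.96, adjusted p = 0.119) or without cKO 3 (0.96, adjusted p = 0.0982), all from limma. cKO 2 also had the highest sum of these 8 cartilage markers, 9910 RPKM against 6126 and 6359 in cKO 1 and 3 and 5299 to 6292 in the 3 controls, with 2 of the 8 called higher, Matn3 and Col9a1. None of the 8 was at 0 in all PSC libraries. Other lists also differed in cKO 2. Osteoblast and osteocyte markers summed to 7580 RPKM there, against 6149 and 5038 in cKO 1 and 3 and up to 11977 in controls. Erythroid markers summed to 862 against 513 and 183, and up to 1257 in controls. Tendon markers were lowest among the cKO libraries in cKO 2, at 1357 against 1696 and 1648. The part of these markers in the Omd values was not tested.

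Ogn RPKM was 222 and 255 for the first 2 controls and 354, 336 and 319 across cKO 1 to 3. The groups did not overlap, with a mean of 239 ± 24.0 (SD, n = 2) against 336 ± 17.2 (SD, n = 3) and a log2 fold change of 0.50 (adjusted p = 0.0473 by limma, SE 0.125). Control 3, however, had 465 RPKM as deposited and 461 at the matched length, above every cKO library. With it in the fit at matched lengths the log2 fold change was 0.18 (adjusted p = 0.747 from limma). Leaving out any 1 of the 5 libraries also ended the call (adjusted p = 0.0720 to 0.187 from limma), and size factor scaling gave 0.33 (adjusted p = 0.152 from limma).

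Aspn, a class I SLRP that carries no glycosaminoglycan chain and binds TGF-β and collagen, had lower values in the cKO libraries, in contrast to its neighbours. Its RPKM was 279 and 331 for the first 2 controls and 223, 245 and 262 across cKO 1 to 3, and control 3 had 668 as deposited and 665 at the matched length. Every control was above every cKO library, but the log2 fold change of -0.32 did not pass the test (limma, SE 0.135 with an adjusted p = 0.172), nor did it with size factors (-0.49, adjusted p = 0.0686 from limma). Within each library the ratio of Omd to Aspn was 0.769, 0.697 and 0.483 in controls 1 to 3 and 1.48, 2.32 and 1.49 in cKO 1 to 3 at matched lengths. The ratio of Ogn to Aspn was 0.795, 0.773 and 0.693 in the controls and 1.59, 1.37 and 1.22 in the cKO libraries. Both ratios were above 1 in every cKO library and below 1 in every control, control 3 included. At matched lengths Omd and Aspn were each apart between the groups in opposite directions, so the separation of their ratio follows from that and adds no support. These pairs too were chosen after their values were seen.

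**Figure D2:**
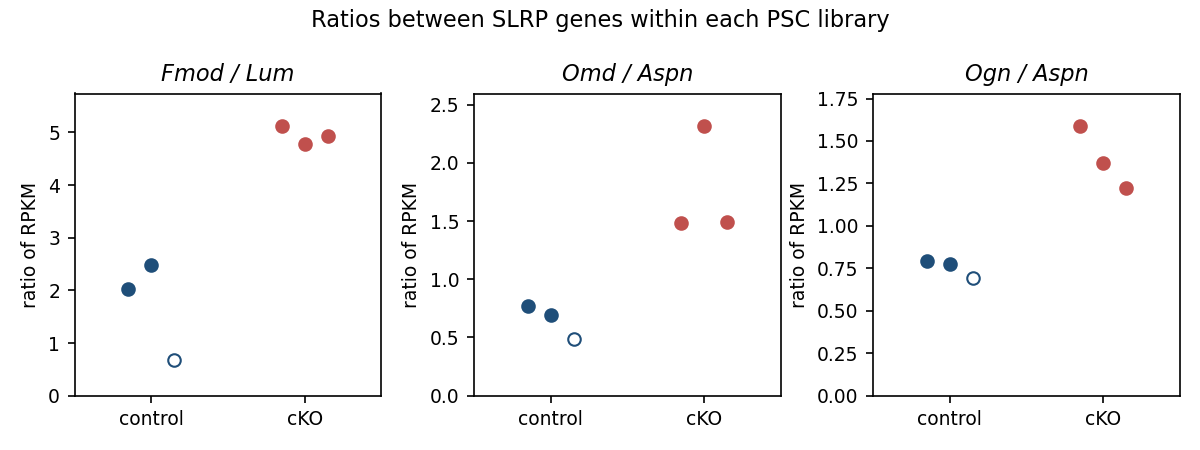
RPKM of Fmod over Lum, Omd over Aspn and Ogn over Aspn within each PSC library (vertical axes, ratio, from 0). Each point is 1 library, controls in blue and cKO in red, with control 3 at matched exon lengths as the open point. The cKO ratios of Fmod to Lum lie between 4.78 and 5.12, and no cKO point overlaps a control point in any panel. For Omd over Aspn this follows from the values of each gene at matched lengths, and for Fmod over Lum from the values of Lum.

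The 250 bases before the annotated start of these 3 neighbouring genes are shown because Omd and Ogn were higher and Aspn was not in the same cKO libraries. They are given 5′ to 3′ on the plus strand from RefSeq on GRCm38.p6, with capitals where a script found TATAAA (the letters of a TATA box, at any position), TGTGGT (the RUNX core) or TGANTCA (an AP-1 site) on either strand.
Aspn, chr13:49544193-49544442, plus strand: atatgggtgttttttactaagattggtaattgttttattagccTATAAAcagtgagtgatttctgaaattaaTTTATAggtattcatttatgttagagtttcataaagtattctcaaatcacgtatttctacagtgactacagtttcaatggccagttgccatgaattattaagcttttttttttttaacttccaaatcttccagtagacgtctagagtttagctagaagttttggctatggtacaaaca
Omd, chr13:49582212-49582461, plus strand: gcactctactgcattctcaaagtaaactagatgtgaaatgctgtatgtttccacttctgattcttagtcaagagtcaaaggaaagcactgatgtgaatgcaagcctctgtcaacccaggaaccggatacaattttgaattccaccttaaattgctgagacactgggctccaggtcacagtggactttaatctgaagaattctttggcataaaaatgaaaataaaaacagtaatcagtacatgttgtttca
Ogn, chr13:49607765-49608014, plus strand: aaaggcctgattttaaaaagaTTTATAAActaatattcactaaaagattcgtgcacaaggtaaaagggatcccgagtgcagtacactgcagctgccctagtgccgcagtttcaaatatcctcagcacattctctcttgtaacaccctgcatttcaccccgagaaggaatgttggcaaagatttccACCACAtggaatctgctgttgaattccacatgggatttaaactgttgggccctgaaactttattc
Upstream of Aspn, TATAAA was found 2 times, starting 207 bases before the start on the plus strand and 178 bases before it on the minus strand. Ogn had 2 overlapping matches of TATAAA, on opposite strands, at 229 and 227 bases, and 1 match of the RUNX core, on the minus strand, at 65 bases before the start. The Omd window held none of the 3 motifs. Of 32851 promoter windows of the same length, 12.4% held TATAAA, 14.05% the RUNX core and 6.75% the AP-1 site. These matches are descriptions of the letters and not sites of binding. Promoters of 7 of the 9 genes were in the sequence table, and those of Dcn and Lum were not used here.

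Dcn, the class I SLRP that binds type I collagen and TGF-β and carries a dermatan or chondroitin sulfate chain, lies next to Lum on chromosome 10, from 97479609 to 97518143. Its RPKM was 1077 and 1593 for the first 2 controls and 1290.4, 981 and 1309 across cKO 1 to 3. The 2 controls lay on either side of cKO 1 and cKO 3, and the log2 fold change of -0.15 did not pass the test (adjusted p = 0.705 by limma, SE 0.218). Without control 2 it was 0.14 (adjusted p = 0.756 from limma). In control 3 Dcn was 5949.5 RPKM as deposited, the largest SLRP value of any library, and 2124 RPKM at the matched length, still above the other 5. The exon reads behind it were 86274 in control 3 and 56888 to 104931 in the others.

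Bgn, the class I SLRP of bone matrix with a pair of glycosaminoglycan chains, lies on chromosome X from 73483602 to 73495933. It had 826 and 783 RPKM for the first 2 controls and 716, 736 and 677 across cKO 1 to 3, with no overlap among these 5 libraries. The difference was small, a log2 fold change of -0.18 (limma, SE 0.129 with an adjusted p = 0.403). Control 3 had 479 RPKM, below every cKO library, and with it in the fit the difference was 0.067 on the log2 scale by limma (adjusted p = 0.902) and -0.11 by edgeR on exon reads (adjusted p = 0.866).

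Prelp, which binds heparan sulfate and collagen and lies on chromosome 1 from 133910304 to 133921414 on the minus strand, near Fmod, had 432 and 843 RPKM for the first 2 controls, 441 for control 3 and 658, 493 and 648 across cKO 1 to 3. The cKO values lay inside the control range, and the log2 fold change was -0.02 (adjusted p = 0.969 by limma, SE 0.277). It was -0.50 without control 1 and 0.46 without control 2 (adjusted p = 0.236 and 0.249 from limma). In control 3, 88.7% of the 11101 exon reads of Prelp were unique, against 100% to 3 digits for the other 8 genes. Prelp overlaps Gm15851 on the opposite strand, and the sources used here do not say whether strand was used in counting.

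Kera, a class II keratan sulfate proteoglycan of cornea and tendon, lies on chromosome 10 from 97606879 to 97613692, next to Lum. It had 77.8 and 175 RPKM for the first 2 controls and 63.7, 55.7 and 88.0 across cKO 1 to 3. Control 1 lay inside the cKO range, and the log2 fold change of -0.77 did not pass (limma, SE 0.328 with an adjusted p = 0.176). Control 3 had 6.49 RPKM as deposited and 5.55 at the matched length, from 88 exon reads, against 1261 to 4301 reads in the others. Tnmd, a tendon marker chosen for mention after its values were seen, was likewise at 33.8 RPKM in control 3 and 343 to 439.9 RPKM elsewhere. Scx was lower there too, at 14.3 RPKM as deposited against 26.2 to 42.6 in the other libraries. Mkx (21.1 RPKM) and Egr1 (310 RPKM) were not, and in control 3 lay inside the range of the others. The 5 tendon markers summed to 686 RPKM in control 3, to 1219 and 1350.1 in controls 1 and 2 and to 1357 to 1696 in the cKO libraries, with none of 5 called and none at 0. Their part in the Kera values was not tested. Kera was called lower only without control 1 (-1.35, adjusted p = 0.0465 from limma), and with control 3 in the fit its direction turned in limma at matched lengths (0.62, adjusted p = 0.782) but not in edgeR on exon reads (-0.47, adjusted p = 0.829).

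With all 6 PSC libraries fitted as deposited, none of the 9 genes passed limma's test, which called 1.89% of 10943 genes, and 1 had an unadjusted p under 0.05. At matched exon lengths limma called 303 of 10775 genes and none of the 9, with 2 members at an unadjusted p under 0.05. On the recovered exon reads of all 6 libraries, edgeR called 216 of 12985 genes and none of the 9, with 3 members at an unadjusted p under 0.05. The share of all genes at an unadjusted p under 0.05 was not counted in these fits. At matched lengths Lum and Aspn had every control above every cKO library, a pattern of 6.59% of 10775 genes. Omd had every control below every cKO library, a pattern of 21.7% of the same genes. For Omd this rests on control 3 at 321 RPKM against 329 in cKO 1, and the 321 lacks any read on the extra exon bases. As deposited, Omd in control 3 lay inside the cKO range. The other 6 members overlapped between the groups.

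**Figure D3:**
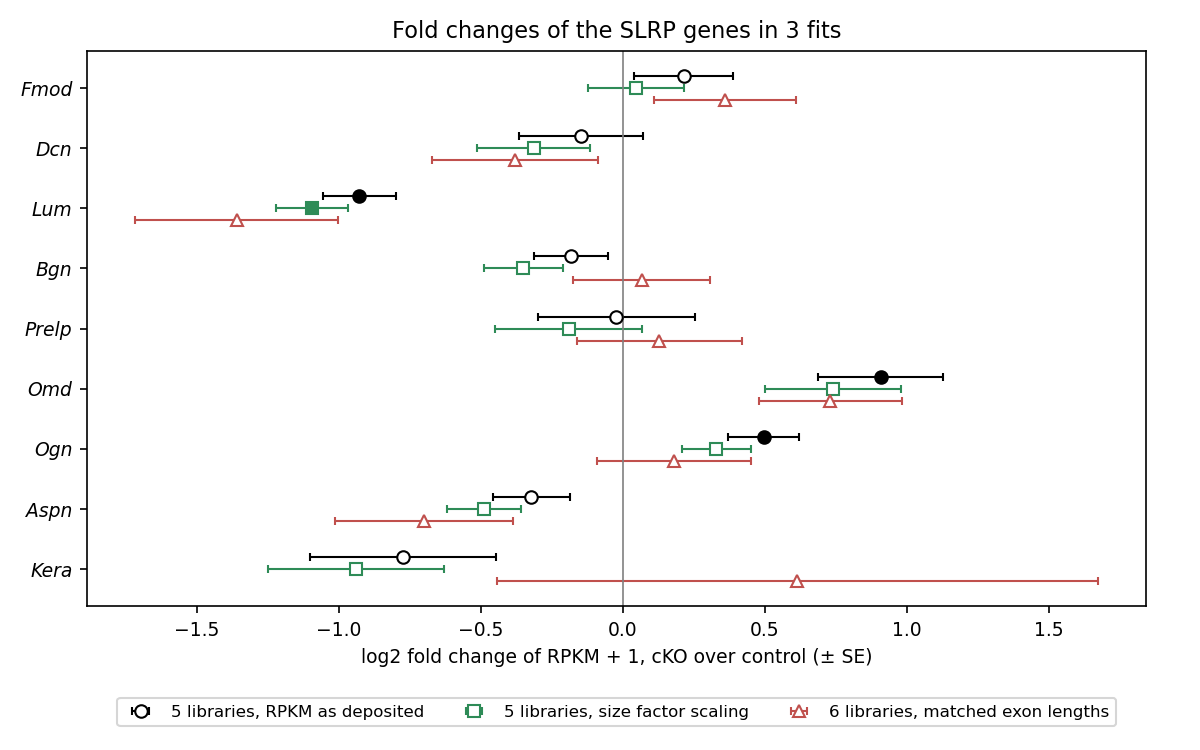
Log2 fold change of RPKM + 1, cKO over control, with SE (horizontal axis) for each SLRP gene in 3 limma fits. Circles are the 5 libraries as deposited, squares the same libraries scaled by size factors and triangles all 6 libraries at matched exon lengths, with filled symbols for an adjusted p under 0.05. Lum is filled in both 5-library fits, Omd and Ogn in the first only, and no gene is filled with all 6 libraries.

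Because Prmt5 acts on splicing proteins, the intron share, reads in introns over all reads of a gene, was compared next. Few reads of the 9 genes fell in introns. In the 6 PSC libraries the intron share was lowest for Fmod, at 0.0169% to 0.0598%, and at most 1.15% for every member other than Ogn. Ogn had 3.61% and 5.54% for the first 2 controls, 3.94% for control 3 and 4.34%, 4.23% and 4.74% across cKO 1 to 3, and the groups overlapped. The counts behind the low shares were small, with 21 to 74 intron reads for Lum and 1 to 25 for Kera in a library. None of the 9 genes passed limma's test of the log2 odds of the intron share, none had an unadjusted p under 0.05, and 0.0841% of 10697 genes passed. Over the 6 libraries the shares of Bgn were apart, at least 0.214% in cKO and at most 0.146% in control libraries. Kera was apart the other way, with at most 0.247% in cKO and at least 0.444% in control libraries. Aspn was narrowly lower too, at most 0.520% against at least 0.521%. For the other members the groups overlapped. How many of all genes had intron shares apart in this way was not counted, so these separations have no background to stand beside. In simulated shares over the same 10697 genes, limma's test recovered 56 of 100 genes whose odds were changed 4-fold. It recovered 98 of 100 changed 16-fold, so smaller changes would often be missed. An offset of 0.005 enters the log2 odds and shrinks changes in shares below it. The shares of Fmod, Lum, Bgn and Prelp were below this offset in every library. Whether the recovery holds for such shares was not tested, so limma's test cannot show that they were unchanged. In control 3, for which reads are given by class, none of the intron reads of Ogn (337), Aspn (103) or Omd (33) were unique to the gene, whereas all 435 intron reads of Cenpp were. The 1 intron read of Kera was not unique either, and what these reads were shared with was not tested. Cenpp itself was at 0.206 to 0.537 RPKM in the 6 libraries.

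**Figure D4:**
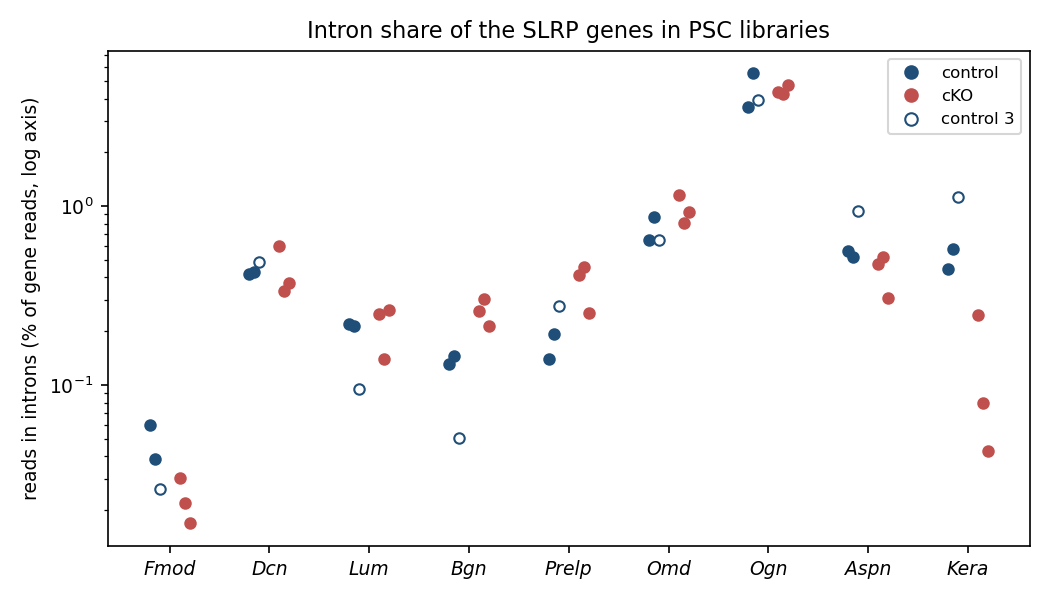
Reads in introns as a percentage of all reads of each SLRP gene (log axis) in each PSC library, with controls in blue, cKO libraries in red and control 3 open. Ogn lies between 3.61% and 5.54% in all 6 libraries, and Fmod at or below 0.0598%.

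Genes that act with the SLRPs were taken from lists of known partners. The counts in each list below stand beside 1.67% of all tested genes called lower and 8.46% called higher. Among 7 tested relatives with leucine-rich repeats, 1 rose and 1 fell. Podnl1, a podocan-like SLRP, fell from 10.4 and 13.0 RPKM in controls 1 and 2 to 2.39, 3.603 and 3.01 in cKO 1 to 3 (log2 fold change -1.67, SE 0.171, adjusted p = 0.00236 from limma), with 10.8 in control 3. Tsku, a secreted regulator of BMP and Wnt signals, rose from 3.26 and 2.46 to 4.73, 5.22 and 5.10 RPKM (0.65, adjusted p = 0.0336 from limma), with 1.65 in control 3. Both genes kept all 3 controls on the same side of all 3 cKO libraries. Chad (chondroadherin, a cartilage protein), the most abundant of the list at 3693 to 5500.0 RPKM, did not pass (0.36, adjusted p = 0.264 from limma). Epyc and Ecm2, neighbours of Kera and Aspn, did not pass either, at 2.33 to 11.2 and 51.8 to 66.5 RPKM.

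Of the 11 listed collagens that SLRPs bind, 4 fell and none rose, beside 1.67% of all tested genes called lower and 8.46% higher. The median log2 fold change of the 11 was -0.47 against 0.14 for all genes. Col3a1, of type III collagen, went from 3219 and 3192 RPKM in controls 1 and 2 to 1952, 1779 and 1981 in cKO 1 to 3 (-0.75, SE 0.156, adjusted p = 0.0272 from limma), and control 3 had 2357. Col12a1, a fibril-associated collagen, fell by 0.77 (adjusted p = 0.00904), Col5a1, which starts fibril assembly, fell by 0.55 (adjusted p = 0.0257), and Col6a3, of the beaded filaments, fell by 0.47 (adjusted p = 0.0309), all from limma. For Col5a1 and Col6a3 control 3, at 187 and 57.7 RPKM, was below every cKO library, and for Col12a1, at 147 RPKM, it was above them.

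Among 11 tested proteases that process SLRPs or their matrix, 2 fell, beside 1.67% of all tested genes called lower. Mmp14, a membrane-bound collagenase, went from 214 in both controls to 133, 132 and 132 RPKM in cKO 1 to 3, with 293 in control 3 as deposited on a shorter exon length (-0.69, adjusted p = 0.00904 from limma). Mmp13, an interstitial collagenase of cartilage and bone, went from 808 and 1329 to 599.8, 445 and 436 RPKM (-1.08, adjusted p = 0.0326 from limma), with 2383 in control 3. Of 20 tested enzymes of chondroitin and dermatan sulfate synthesis, Ust, an uronyl sulfotransferase, fell by 0.54 (adjusted p = 0.0329 from limma) and Chpf2, a chondroitin polymerizing factor, fell by 0.58 (adjusted p = 0.0394 from limma). For Chpf2 control 3, at 12.8 RPKM, was below every cKO library (13.2 to 15.4). Of 8 tested enzymes of keratan sulfate synthesis 1 passed, B3gnt2, which extends polylactosamine chains, and it rose by 1.46 on the log2 scale (adjusted p = 0.00234 from limma). Control 3 did not follow the other controls for B3gnt2, with 6.09 RPKM against 1.78 and 1.99 in controls 1 and 2 and 6.27 to 8.08 in the cKO libraries. None of 14 tested ligands and receptors of SLRPs passed limma's test, with 3 at an unadjusted p under 0.05, namely Tgfb2, Tlr2 and Egfr. Of these 11 called partner genes, Podnl1, B3gnt2, Col12a1 and Mmp14 stayed called without any 1 of the 5 libraries, and 10, all but Tsku, with size factors. With all 6 libraries at matched exon lengths 3 stayed called, Podnl1, Col12a1 and Mmp14.

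Markers of other cells also differed between the 5 libraries. Here too, 1.67% of all tested genes were called lower and 8.46% higher. Of 5 tested erythroid markers 4 haemoglobin genes rose, and the list of 6 summed to 47.3 and 33.1 RPKM for the first 2 controls, 1257 for control 3 and 513, 862 and 183 across cKO 1 to 3. Of 10 tested osteoblast and osteocyte markers Phex, Dmp1 and Ifitm5 fell, and the list of 11 summed to 5380.0 to 11977 RPKM in the 3 controls and 5038 to 7580 in the cKO libraries. Of 2 tested endothelial markers Pecam1 rose, from 0.672 and 0.537 to 6.72, 3.24 and 3.31 RPKM, with 0.233 in control 3. Of 4 tested osteoclast and 4 tested macrophage markers none passed, with 2 and 0 at an unadjusted p under 0.05. Of 9 tested stromal and 8 tested periosteal stem cell markers Postn was called lower in both lists, and Gli1 was called higher in the second. The part of these markers in the SLRP values was not tested.

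The gene whose log2(RPKM + 1) followed each member most closely over the 6 PSC libraries, as deposited, was H2-T23 for Dcn, 1700123O20Rik for Bgn, S1pr1 for Lum, BC031181 for Fmod, Mgrn1 for Ogn, Ugcg for Omd, Ubtf for Prelp, 3110045C21Rik for Aspn and Tram2 for Kera. Pearson's r was 0.988 to 0.998. With only 6 libraries, of which control 3 lies far from the rest, 16 to 510 of 10942 genes reached r over 0.95 with a given member. These values describe the 6 libraries only.

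In osteoclasts the SLRP genes were at the lower end of what the libraries could measure. Omd, Aspn and Kera had no read in any of the 6 libraries, which together held 13754223 reads, so that a level of up to 0.218 counts per 1000000 reads (CPM) is allowed by counting error alone. Lum had 2 reads over the 6 libraries, Ogn 3 and Prelp 5. Dcn had 15, 7 and 6 reads in controls 1 to 3 and 8, 5 and 1 in cKO 1 to 3, and Fmod had 13, 3 and 5 against 3, 0 and 5. These 8 genes did not pass the filter and were not tested in the main fit. With no filter, 6 members could be tested by edgeR and none passed, with none at an unadjusted p under 0.05, and DESeq2 called none of the same 6. Prmt5 itself had 58.5, 71.7 and 67.6 CPM in the controls and 28.8, 37.8 and 35.3 CPM in the cKO libraries, and Acp5, which marks osteoclasts, was at 4415 to 8020.1 CPM.

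Bgn was the only SLRP gene with enough osteoclast reads for the test. It had 91, 56 and 30 reads in controls 1 to 3 and 81, 15 and 37 in cKO 1 to 3. After TMM scaling this was 36.4, 21.7 and 10.4 against 22.2, 12.6 and 38.4 CPM. The mean was 22.9 ± 13.0 CPM (SD, n = 3) in controls and 24.4 ± 13.1 CPM (SD, n = 3) in cKO libraries, and the groups overlapped over nearly their whole range. The log2 fold change came to 0.05 (SE 0.375, adjusted p = 0.995 from edgeR), in a comparison that called 4 of 10724 genes (0.0373%). It ranged from -0.31 without control 3 to 0.56 without control 1, and was -0.27 without cKO 3, so that its direction was not stable. Col1a1, the main bone collagen, chosen for mention after its values were seen, followed nearly the same order of libraries at 176, 100 and 36.9 against 56.2, 54.6 and 210 CPM. Both genes were highest in cKO 3, next in control 1 and lowest in control 3. Prrx1, a stromal transcription factor, had 15, 14 and 12 reads in controls and 17, 0 and 8 in cKO libraries. The 10 stromal markers summed to 748 to 840.3 CPM in controls and 637 to 797 CPM in cKO libraries, most of it S100a4, which macrophages also express, with none of 4 tested called. The part of stromal cells in the Bgn values was not tested. Of 11 collagens none passed edgeR's test, with 0 at an unadjusted p under 0.05, and in the other partner lists none passed either, with Tsku, Chst12 and Tgfbr2 at an unadjusted p under 0.05.

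**Figure D5:**
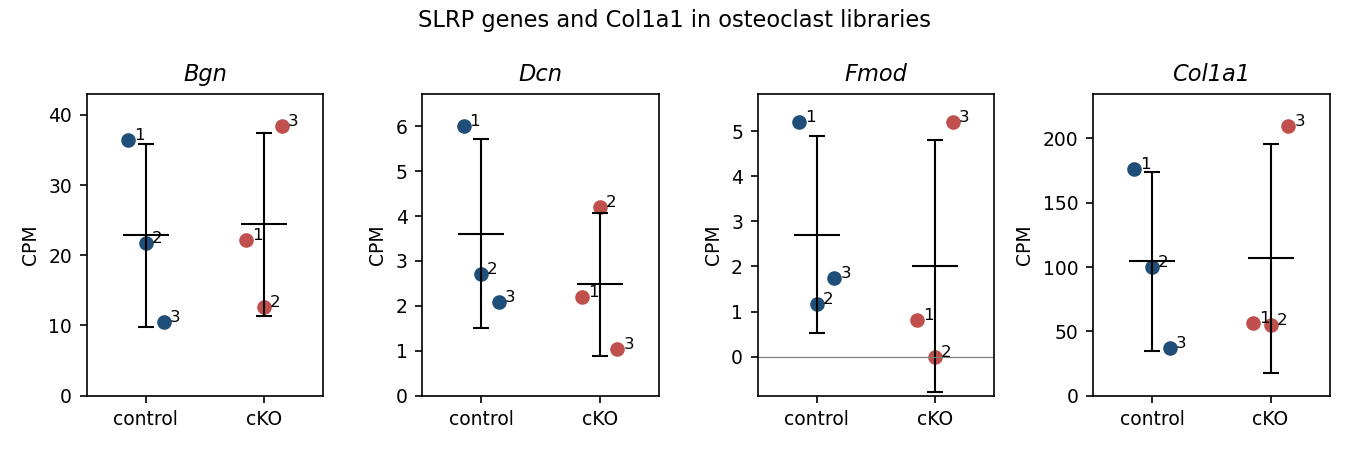
TMM-scaled CPM of Bgn, Dcn, Fmod and Col1a1 in each osteoclast library, with controls in blue and cKO libraries in red. Each point is 1 library with its replicate number, and bars with whiskers are the mean ± SD (n = 3). The groups overlap for all 4 genes, and cKO 3 and control 1 are the highest libraries for Bgn, Fmod and Col1a1.

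Per kilobase of exon, Bgn had 2.93 to 10.8 CPM in osteoclasts and 479 to 826 RPKM in PSCs. The tables were counted and scaled separately, and this difference in level between the cell types was not tested. In no osteoclast library did Dcn exceed 2.88 or Fmod 1.58 CPM per kilobase.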

How the data were processed

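RNA-seq of 6 PSC and 6 osteoclast libraries was analysed from the processed tables. The methods name SMART-seq v4, and the submitters' processing notes name Trim Galore 0.6.4, kallisto 0.46.0 and GRCm38. The osteoclast table holds counts, which the authors deposited unscaled. For PSCs the authors deposited RPKM and the intron ratio, which is a gene's intron reads over its total, with a separate table for control 3 that also holds counts of exon and intron reads and exon lengths. The sources used here do not give the aligner behind RPKM or whether strand was used. The p-values, false discovery rates and signed fold changes of the authors' own test were not used. All sample columns were matched to a library (0 unmatched).

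PSC values were tested with limma 3.58.1 (R 4.3.3) on log2(RPKM + 1), keeping a mean RPKM of 1 or more. The study's DESeq2 design needs counts, so it could not be used on RPKM. Intron shares were tested with limma as log2 odds (offset 0.005). Osteoclast counts were tested with edgeR 4.0.16 (TMM, filterByExpr, quasi-likelihood). All p-values are two-sided, and the threshold is an adjusted p of 0.05 (Benjamini-Hochberg). Exon reads were recovered from the RPKM steps with a tolerance of 0.02 reads. They were whole for 93.0% to 93.7% of detected genes in the 5-library table, and matched the deposited counts of control 3 in 15741 of 15741 genes. Run on them, edgeR called 919 of 13711 genes over the 5 libraries. The exon lengths of the 5-library table were those of the control 3 table or of GENCODE M21, whichever gave whole reads. For genes with neither, a length that gave whole reads was searched for, and genes without one have no matched length. All tests were first run on simulated data.

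The members and gene lists were chosen with earlier results of these data known. Named are all members, Prmt5, each list's members that passed (the 3 smallest unadjusted p where more than 3 or none did), genes that overlap a member and the gene most like each member. Genes named outside this rule, such as Col6a3, Chad, Epyc, Ecm2, Tnmd, Col1a1 and the marker genes of the osteoclast text, were chosen after their values were seen. Intervals and limits from counts cover counting error only. Alternatives were other pseudocounts, filters, scalings and tools, fits with control 3, with a replicate block or without each library. Matched exon lengths and edgeR with all 6 PSC libraries were chosen after seeing the data.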

Additional observations from a re-analysis of the deposited data

How the results depend on the processing

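The number of the 9 SLRP genes called in PSCs, 3 in the main comparison, was 3 with a pseudocount of 0.1 or 0.5 and with a mean RPKM of at least 5. It was 1 with DESeq2 size factors, with no variance trend and with edgeR on recovered reads, and in each of these the gene was Lum. It was 0 with no filter on low values, with all 6 libraries, with all 6 at matched exon lengths and with edgeR on the exon reads of all 6, the last 2 chosen after seeing the data. It was 1 to 2 when any of the 5 libraries was left out. No source used here says whether the replicate numbers pair the libraries. The deviations of same-numbered libraries had r of -0.02, -0.06 and -0.02 in PSCs and -0.07, 0.07 and -0.07 in osteoclasts. Such low values do not settle whether the libraries were paired. With the number as a replicate block, 0 members were called with all 6 or with 5 libraries, and 1 and 67 genes in all against 207 and 1118 without it. In osteoclasts the block gave 0 called members, as did all other settings, and 0 called genes in all against 4. Calls over all PSC genes were 248 with no filter, 709 with size factors, 919 with edgeR, 207 with all 6 libraries, 303 at matched lengths, 216 with edgeR on all 6 and 324 to 605 without 1 library. In osteoclasts 46 genes were called with no filter, 0 with at least 10 reads in every library (436 at an unadjusted p under 0.05) and 0 to 9 without 1 library. No member was called for its intron share in any setting, where the calls over all genes were 14 and 2 with offsets of 0.001 and 0.02, 267 with a mean RPKM of at least 5, 0 with all 6 libraries, with or without the block, and 1 to 4 without 1 library, against 9.

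Directions turned only for members that did not pass. With all 6 libraries, as deposited and with the replicate block, the log2 fold change was 0.067 for Bgn, 0.13 for Prelp and 0.55 for Kera. At matched lengths it was 0.067, 0.13 and 0.62. With edgeR on the exon reads of all 6 the direction did not turn, at -0.11, -0.06 and -0.47. Without 1 of the 5 libraries Dcn ranged from -0.43 to 0.14 and Prelp from -0.50 to 0.46, and Bgn in osteoclasts from -0.31 to 0.56. All 9 members kept their place in the order of levels with size factors. The cause of these shifts was not tested. Depth limits the osteoclast values, where 6 members had 5 reads or fewer in all, and the intron shares.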
